A study of Mus musculus with 24 samples.

Results

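The genes described here encode nucleases that cut RNA or DNA in lysosomes, the cytosol, the nucleus, or outside the cell and so bear on which nucleic acid fragments reach the nucleic acid sensors. Of 8 named genes (Rnaset2a, Rnaset2b, Pld3, Pld4, Dnase2a, Dnase1l3, Trex1, and Rnaseh2b), 5 were found by symbol among the 23930 amplicons of the table, and these 5 passed the filter on low values in both monocyte subsets. Rnaset2a, Rnaset2b, and Trex1 were not analysed here. The libraries came from sorted splenic cells of untreated mice: Ly6Chi monocytes (CD11b+ Ly6G- SiglecF- NK1.1-) and Ly6Clow monocytes, which were sorted as Fcgr4+ as well. Each subset was taken from WT mice, from mice that lack the lysosomal nucleoside transporter SLC29A3 (Slc29a3-/-), and from Slc29a3-/- Tlr7-/- mice, which lack the RNA sensor TLR7 as well, with 4 libraries in each of the 6 groups. Neither the age of the mice nor whether a library came from 1 mouse is given in the sources used here, so P values measure the spread between libraries, which may be technical. The submitters' labels call the cells macrophages.

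TLR7 responds to nucleosides together with short RNA fragments, both of which arise as RNA is broken down in endosomes and lysosomes. SLC29A3 carries nucleosides out of the lysosome. RNase T2 cuts RNA into fragments that TLR7 binds, whereas PLD3 and PLD4 are exonucleases of the endolysosome that trim single-stranded DNA and RNA. DNase II, encoded by Dnase2a, is the acid DNase of the lysosome and digests the DNA of engulfed cells. DNase1L3 is secreted by dendritic cells and macrophages and digests DNA in chromatin and microparticles. TREX1 removes DNA from the cytosol, and RNASEH2B is a subunit of RNase H2, which takes ribonucleotides out of DNA.

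In mm10 (GENCODE vM21), Pld3 lies at chr7:27532000-27553218 on the minus strand, Pld4 at chr12:112760655-112768990 on the plus strand, Dnase2a at chr8:84908560-84922915 on the plus strand, Dnase1l3 at chr14:7964533-7994573 on the minus strand, and Rnaseh2b at chr14:62292589-62372992 on the plus strand. The table gives 1 amplicon per gene without its position, so its exon was not determined. RefSeq windows of 300 bases around the start site (GRCm38.p6, 250 bases before to 50 after) were at hand for Pld3, Dnase2a, and Pld4, the 3 genes whose products act inside lysosomes, and are printed to show the same short motif in each of them. They run 5′ to 3′ in the direction of the gene, from chr7:27553169-27553468 on the minus strand for Pld3, chr8:84908505-84908804 on the plus strand for Dnase2a, and chr12:112760405-112760704 on the plus strand for Pld4. Capitals mark GGAAGT, a motif of Ets family factors such as PU.1 of myeloid cells.
Pld3: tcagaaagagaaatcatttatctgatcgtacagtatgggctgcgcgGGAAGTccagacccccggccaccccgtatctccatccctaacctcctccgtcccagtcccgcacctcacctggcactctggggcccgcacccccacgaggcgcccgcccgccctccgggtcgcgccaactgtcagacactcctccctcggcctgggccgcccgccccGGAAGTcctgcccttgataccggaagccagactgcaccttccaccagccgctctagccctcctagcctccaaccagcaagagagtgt
Dnase2a: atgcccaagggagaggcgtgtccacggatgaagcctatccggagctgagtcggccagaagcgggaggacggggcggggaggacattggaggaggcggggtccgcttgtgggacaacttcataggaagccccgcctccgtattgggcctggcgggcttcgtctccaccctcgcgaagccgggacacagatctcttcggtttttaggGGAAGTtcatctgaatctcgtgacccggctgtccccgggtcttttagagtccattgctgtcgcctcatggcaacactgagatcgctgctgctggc
Pld4: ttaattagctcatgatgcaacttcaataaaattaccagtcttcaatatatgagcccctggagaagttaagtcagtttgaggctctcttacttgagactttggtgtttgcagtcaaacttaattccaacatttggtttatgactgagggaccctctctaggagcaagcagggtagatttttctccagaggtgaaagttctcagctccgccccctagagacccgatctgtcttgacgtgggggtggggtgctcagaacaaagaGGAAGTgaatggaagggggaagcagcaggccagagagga
The motif stands at bases 47 to 52 and 214 to 219 in Pld3, 206 to 211 in Dnase2a, and 262 to 267 in Pld4, counted from the first base printed. In Pld4 it is the end of GAGGAAGT, a longer form that PU.1 is known to bind. On either strand, GGAAGT was found in 23.8% of 32851 such windows of the reference and GAGGAAGT in 3.20%. The E-box CACGTG, found in 7.15% of all windows, was in none of the 3. Such a match describes the letters of the window and does not show that a factor binds there.

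Each library was inferred to hold 12311031 to 14572210 reads, so that 3 reads are 0.206 to 0.244 RPM (reads scaled to a total of 1000000 in each library), and the lowest value of any of the 5 genes was 4.69 RPM. In both subsets, barcodes 11 to 16 belong to WT replicates 1 to 3, which have 14237263 to 14572210 reads, whereas WT replicate 4 and all knockout libraries have other barcodes and 12311031 to 13048385 reads. What this split marks is not stated, so WT replicate 4 alone also served as WT, in a fit that assumes this library to vary like those of the other groups. Fold changes between the knockouts hold none of barcodes 11 to 16, but their SE and P use the spread of the WT libraries as well. Slc29a3 itself had a mean of 188 RPM in WT, 157 in Slc29a3-/-, and 272 in Slc29a3-/- Tlr7-/- Ly6Chi monocytes, and Tlr7 had 265, 180, and 317 RPM. Both genes were disrupted with CRISPR/Cas9 by small changes of sequence, which an amplicon elsewhere in the transcript does not show, so these levels do not check the labels. In Ly6Chi monocytes the median log2 fold change of all genes was -0.14 for Slc29a3-/- against WT and -0.12 against Slc29a3-/- Tlr7-/-, and TMM scaling moved it to 0.02 and 0.03. With TMM scaling 1656 genes were higher than WT and 1278 lower in place of 1072 and 1877, and 1428 were higher than Slc29a3-/- Tlr7-/- and 617 lower in place of 1059 and 1091. Summed levels of 11 monocyte markers, Csf1r and Itgam among them, were 4210 to 5580 RPM in Slc29a3-/- Ly6Chi libraries, below the 6130 to 7010 RPM of WT and the 6220 to 7140 RPM of Slc29a3-/- Tlr7-/-, and 8460 to 15900 RPM in Ly6Clow libraries. By gene they did not move together: in Slc29a3-/- against WT Ly6Chi monocytes 2 of the 11 were called higher and 1 lower (limma, median log2 fold change -0.09). The part of these markers in the levels of the nuclease genes was not tested. The list of neutrophil markers held Ly6g, Ltf, Camp, Ngp, Lcn2, Retnlg, and the granule genes Elane, Mpo, Prtn3, and Ctsg. They summed to 43500 to 83400 RPM in Slc29a3-/- Ly6Chi libraries and to 6420 to 22200 RPM in the other Ly6Chi libraries. Ly6G- cells were sorted, and whether neutrophils or other cells of the sort carry these transcripts was not tested. Of these 10 genes, 9 were called higher and 1 lower in Slc29a3-/- than in WT Ly6Chi monocytes (limma). Fewer cells of a type and less RNA per cell cannot be told apart in such bulk samples.

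In Ly6Chi monocytes without SLC29A3, 3 of the 5 nuclease genes were lower than in WT and 1 was higher. Dnase1l3, Pld3, and Dnase2a fell, and Rnaseh2b rose. Calls were made with limma on log2(RPM + 1) at a Benjamini-Hochberg adjusted P under 0.05 over all 10561 genes tested, of which 27.9% were called in this comparison, 17.8% lower and 10.2% higher. The libraries of the groups did not overlap for these 4 genes, nor for 21.8% of all genes that were lower and 11.9% that were higher. For the other comparisons no such share of all genes is given. Groups without overlap are described there without showing that the nuclease genes stand out. No nuclease gene was called by limma between Slc29a3-/- Tlr7-/- and WT Ly6Chi monocytes, where 1.46% of all genes were (1 gene, Pld3, had an unadjusted P under 0.05). Between Slc29a3-/- and Slc29a3-/- Tlr7-/- Ly6Chi monocytes 3 of 5 were called, beside 20.4% of all genes: Dnase1l3 and Pld4 were lower in Slc29a3-/- and Rnaseh2b was higher. In Ly6Clow monocytes none of 5 was called for Slc29a3-/- against WT (1 gene, Pld4, had an unadjusted P under 0.05), 2 for Slc29a3-/- Tlr7-/- against WT, and 1 between the knockouts, beside 4.64%, 8.87%, and 1.93% of 10317 genes. The share of all genes with an unadjusted P under 0.05 was not counted, so counts at that level, here and below, have no background. The 3 comparisons of a subset share their libraries and are not independent of each other.

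**Figure D1:**
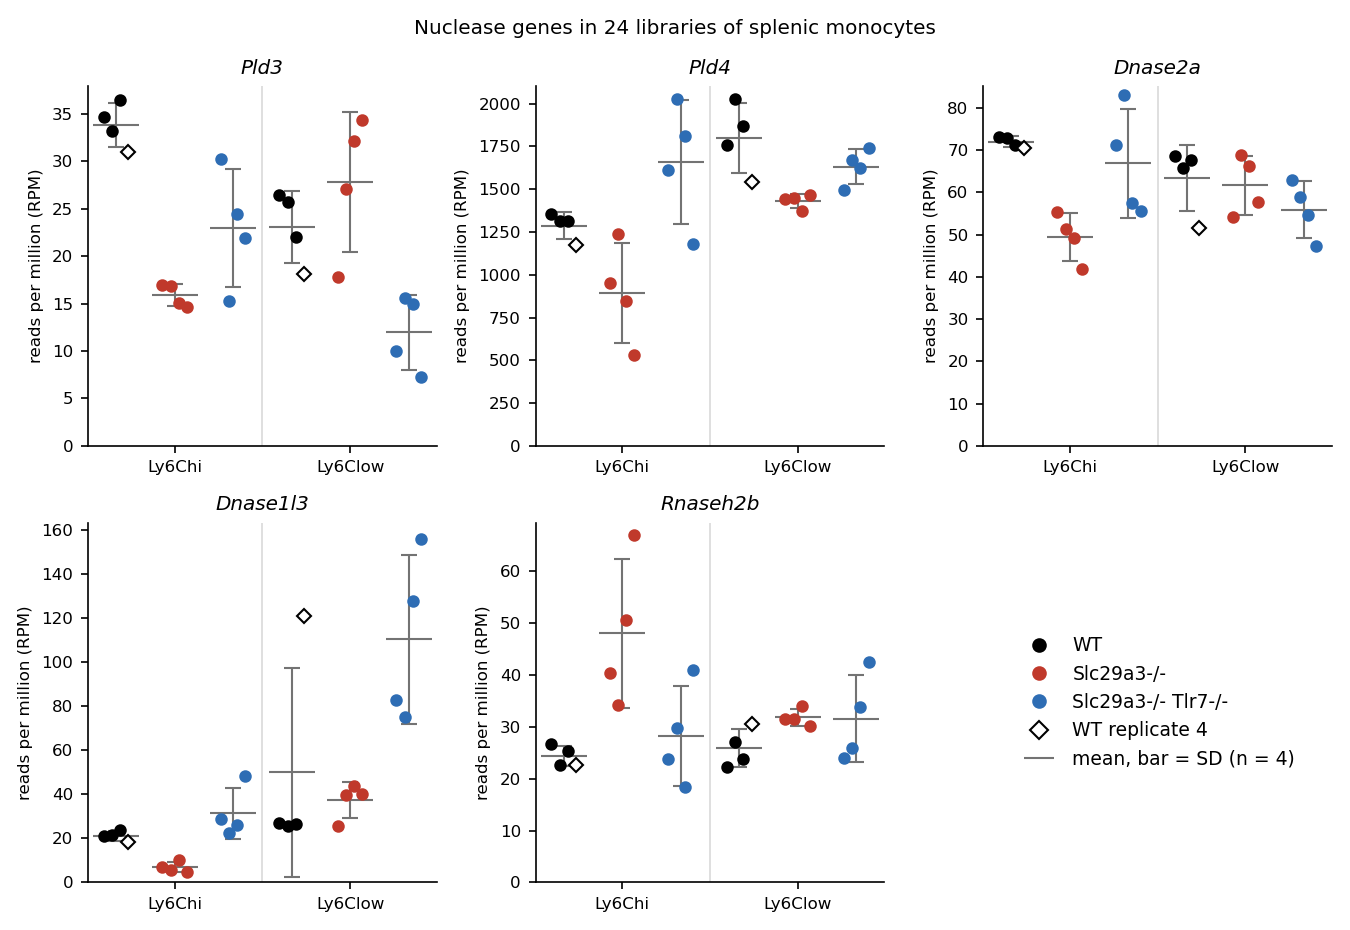
Level of each nuclease gene in RPM (vertical axis, linear from 0) in every library of the 6 groups, with WT in black, Slc29a3-/- in red, Slc29a3-/- Tlr7-/- in blue, open diamonds for WT replicate 4, and grey bars for the mean ± SD (n = 4). The 4 Slc29a3-/- Ly6Chi libraries lie below every WT Ly6Chi library for Pld3, Dnase2a, and Dnase1l3 and above every one for Rnaseh2b.

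Pld3, the exonuclease found in many cell types, was lowest in a different genotype in each subset. In Ly6Chi monocytes it had 34.6, 33.2, 36.5, and 30.97 RPM in the 4 WT libraries (replicates 1 to 4, the order kept below), 17.0, 16.8, 15.1, and 14.7 RPM in Slc29a3-/-, and 30.3, 15.3, 24.5, and 21.97 RPM in Slc29a3-/- Tlr7-/-. Every Slc29a3-/- library lay below every WT library, and so did every Slc29a3-/- Tlr7-/- library, whose replicate 2 was as low as the Slc29a3-/- libraries. The means were 33.8 ± 2.33 RPM in WT and 15.9 ± 1.18 RPM in Slc29a3-/- (SD, 4 libraries each), and limma gave a log2 fold change of -1.04 ± 0.18 (SE) with an adjusted P of 0.0013. Against WT replicate 4 alone the log2 fold change was -0.92 and no longer called (adjusted P = 0.21). Against WT, Slc29a3-/- Tlr7-/- differed by -0.57 ± 0.18 on the log2 scale (adjusted P = 0.096), which was called without its replicate 1 (-0.71, adjusted P = 0.035) and was -0.40 without its replicate 2 (0.20). The difference between the knockouts, -0.47 ± 0.18, was not called (adjusted P = 0.084) except without Slc29a3-/- Tlr7-/- replicate 2 (-0.64, adjusted P = 0.011), and was -0.33 without replicate 1 (0.22).

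In Ly6Clow monocytes Pld3 had 26.5, 25.7, 22.1, and 18.1 RPM in WT, 17.8, 27.04, 32.1, and 34.4 RPM in Slc29a3-/-, and 10.01, 15.6, 14.99, and 7.27 RPM in Slc29a3-/- Tlr7-/-. All 4 Slc29a3-/- Tlr7-/- libraries lay below all libraries of the other genotypes, whereas WT and Slc29a3-/- overlapped. Pld3 fell in Slc29a3-/- Tlr7-/- by 0.94 ± 0.26 on the log2 scale against WT (limma, adjusted P = 0.042), and Slc29a3-/- was higher than Slc29a3-/- Tlr7-/- by 1.17 ± 0.26 (adjusted P = 0.031). Both calls were near the threshold. The first was lost with WT replicate 4 alone (-0.61, adjusted P = 0.55), in the fit of only the groups compared (0.12), under RLE scaling (0.051), without a filter (0.071), and without any of WT replicates 1 to 3 or Slc29a3-/- Tlr7-/- replicates 1, 3, and 4 (adjusted P up to 0.12). The second was lost with only the groups compared (adjusted P = 0.097), with either other filter (0.055 and 0.052), and without Slc29a3-/- replicate 2, 3, or 4 or Slc29a3-/- Tlr7-/- replicate 4 (up to 0.14). Against WT, Slc29a3-/- differed by 0.23 (95% interval -0.32 to 0.79).

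The effect of genotype on Pld3 differed between the subsets when tested as an interaction in all 24 libraries. The Slc29a3-/- to WT difference was lower in Ly6Chi than in Ly6Clow monocytes (log2 difference -1.28 ± 0.32, limma, adjusted P = 0.013), in a test that called 8.85% of 11042 genes. The difference between the knockouts was also lower in Ly6Chi monocytes (-1.64 ± 0.32, adjusted P = 0.0024), in a test that called 8.97%. With WT represented by replicate 4 alone the first was -1.48 (adjusted P = 0.33). Pld3 was the only 1 of the 5 genes called in these 2 tests. No nuclease gene was called in the limma interaction of Slc29a3-/- Tlr7-/- against WT, where 0.0634% of all genes were, and 0 had an unadjusted P under 0.05.

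Within genotypes, Pld3 was higher in Ly6Clow than in Ly6Chi monocytes of Slc29a3-/- mice by 0.73 ± 0.23 on the log2 scale (limma, adjusted P = 0.012), and without Ly6Clow replicate 4 by 0.62 (0.051). In Slc29a3-/- Tlr7-/- mice it was lower in Ly6Clow monocytes (-0.91 ± 0.23, adjusted P = 0.0032). In WT the log2 difference of -0.54 was not called (adjusted P = 0.076), though the libraries of the subsets did not overlap. Of all genes, 29.6% were called between the subsets in WT, 41.2% in Slc29a3-/-, and 33.3% in Slc29a3-/- Tlr7-/-. Of the nuclease genes, limma called none of 5 in WT (3 had an unadjusted P under 0.05, a level at which all genes were not counted), 3 in Slc29a3-/-, all higher in Ly6Clow monocytes like 22.1% of all genes, and 2 in Slc29a3-/- Tlr7-/-. The study called genes with DESeq2 at a fold over 1.5 and an unadjusted P under 0.05, and its calls were not recomputed. With these thresholds put on the limma values, the count for Slc29a3-/- against WT in Ly6Chi monocytes was again 4, beside 26.7% of all genes, but with Pld4 (fold 1.51) in place of Dnase2a (fold 1.45). With these thresholds 1 nuclease gene was called between the subsets of WT, 2 between the Ly6Clow knockouts, and 2 and 3 in the interactions of Slc29a3-/- with WT and with Slc29a3-/- Tlr7-/-, beside 29.3%, 13.7%, 20.2%, and 22.6% of all genes.

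**Figure D2:**
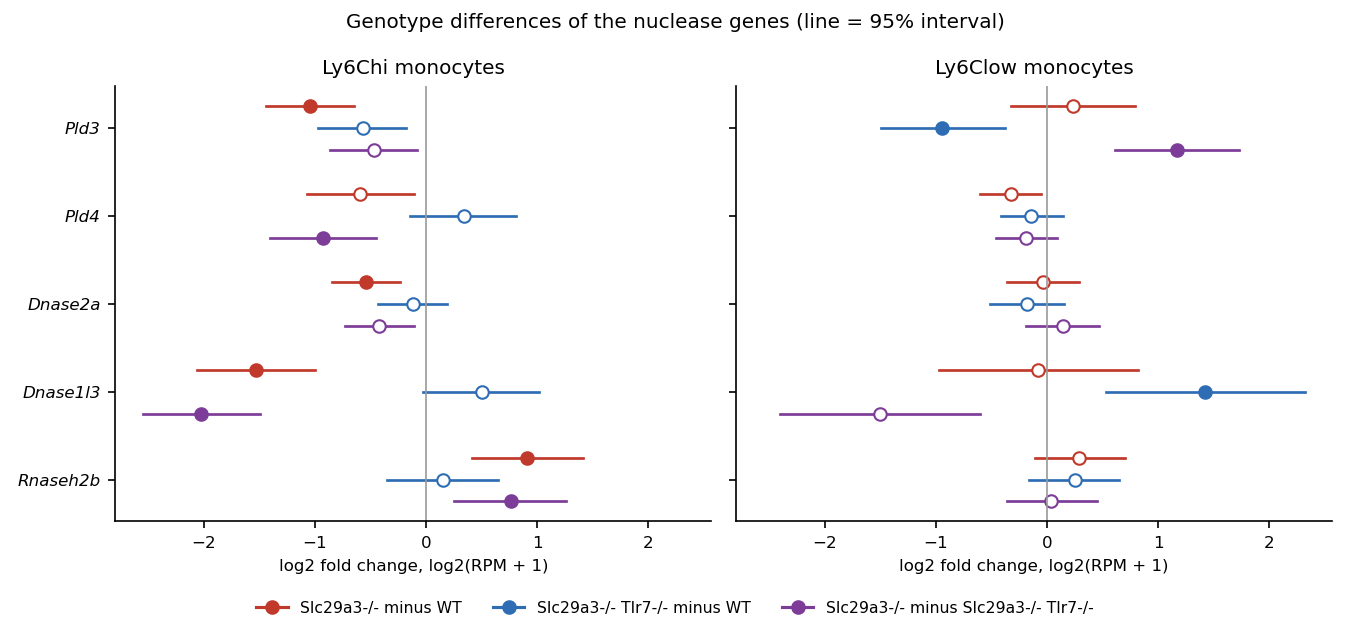
Log2 fold change of the 5 nuclease genes on the log2(RPM + 1) scale (horizontal axis) for the 3 genotype comparisons in each subset, with lines for the 95% interval and filled points for an adjusted P under 0.05. For Slc29a3-/- minus WT (red), Pld3, Dnase2a, and Dnase1l3 lie below 0 and Rnaseh2b above 0 in Ly6Chi monocytes, and no red point is filled in Ly6Clow monocytes.

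Pld4, the related exonuclease best known from dendritic cells and other phagocytes, was lower in Slc29a3-/- than in Slc29a3-/- Tlr7-/- Ly6Chi monocytes. Its levels there were 1353, 1312, 1312, and 1174 RPM in WT, 952, 1236, 849, and 532 RPM in Slc29a3-/-, and 1610, 2028, 1811, and 1180 RPM in Slc29a3-/- Tlr7-/-. Slc29a3-/- replicate 4 was the lowest of the 24 libraries, and replicate 2 lay within the range of WT. Slc29a3-/- replicate 2 also lay above Slc29a3-/- Tlr7-/- replicate 4, so the knockouts overlapped. The log2 fold change between the knockouts was -0.93 ± 0.22 (limma, adjusted P = 0.0097) and -0.77 under TMM scaling (0.016), and it kept an adjusted P of 0.030 or less with any 1 library left out. Against WT the log2 fold change was -0.59 ± 0.22 and not called (adjusted P = 0.062). Without Slc29a3-/- replicate 4 it was -0.36 (adjusted P = 0.17). It was called without Slc29a3-/- replicate 2 (-0.77, adjusted P = 0.020) and with the replicate number as a block (0.022), while TMM scaling brought it to -0.42 (0.14). In Slc29a3-/- Tlr7-/- the difference from WT was 0.34 (95% interval -0.14 to 0.81).

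Ly6Clow monocytes held Pld4 within a narrower range. WT libraries had 1758, 2028, 1871, and 1543 RPM, Slc29a3-/- libraries 1445, 1449, 1372, and 1464 RPM, and Slc29a3-/- Tlr7-/- libraries 1493, 1673, 1624, and 1739 RPM. The Slc29a3-/- libraries were the lowest of the 3 genotypes without overlap, and the share of all genes separated in this way is not given. None of these differences was called by limma, with log2 fold changes of -0.32 for Slc29a3-/- against WT (adjusted P = 0.17), -0.14 for Slc29a3-/- Tlr7-/- against WT (0.49), and -0.19 between the knockouts (0.42). Without WT replicate 4 the first was -0.39 (adjusted P = 0.031), and without WT replicate 2 it was -0.26 (0.41). Between subsets, Pld4 was higher in Ly6Clow than in Ly6Chi monocytes of Slc29a3-/- mice by 0.75 ± 0.19 (adjusted P = 0.0023). The same difference was 0.48 in WT (adjusted P = 0.056), called under TMM scaling (0.55, 0.027), and 0.00 in Slc29a3-/- Tlr7-/-.

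Dnase2a varied least of the 5, with a highest group mean 1.46 times the lowest. In Ly6Chi monocytes it had 73.2, 72.9, 71.2, and 70.6 RPM in WT, 55.2, 51.4, 49.2, and 41.9 RPM in Slc29a3-/-, and 71.2, 83.1, 57.6, and 55.6 RPM in Slc29a3-/- Tlr7-/-. The Slc29a3-/- libraries lay below all others of the subset. Dnase2a fell in Slc29a3-/- against WT by 0.54 ± 0.14 on the log2 scale (limma, adjusted P = 0.013), from a mean of 71.96 ± 1.26 to 49.5 ± 5.60 RPM. The call was lost with TMM scaling (-0.37, adjusted P = 0.053), with the thresholds of the study (fold 1.45), and against WT replicate 4 alone (-0.51, 0.39). Against Slc29a3-/- Tlr7-/- the log2 fold change was -0.42 (adjusted P = 0.055), and without Slc29a3-/- Tlr7-/- replicate 4 it was -0.50 (0.035), without replicate 2 -0.31 (0.12). In Ly6Clow monocytes the libraries of all genotypes overlapped, from 51.7 to 68.5 RPM in WT, 54.1 to 68.8 in Slc29a3-/-, and 47.2 to 62.8 in Slc29a3-/- Tlr7-/-, and no difference was called. The Slc29a3-/- to WT difference there was -0.04 (95% interval -0.36 to 0.29). The interaction of this difference with the subset was -0.50 (adjusted P = 0.13).

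Dnase1l3, the secreted DNase, varied most, with group means from 6.90 to 110.2 RPM. In Ly6Chi monocytes it had 21.1, 21.4, 23.8, and 18.2 RPM in WT, 7.17, 5.61, 10.1, and 4.69 RPM in Slc29a3-/-, and 28.9, 22.3, 26.1, and 48.2 RPM in Slc29a3-/- Tlr7-/-. The Slc29a3-/- libraries were far below the others, none of which fell under 18.2 RPM. The mean of 6.90 ± 2.39 RPM was 3.06-fold lower than the 21.1 ± 2.31 RPM of WT and 4.55-fold lower than the 31.4 ± 11.5 RPM of Slc29a3-/- Tlr7-/- (SD, 4 libraries each). On the log2 scale the fold change was -1.53 ± 0.25 against WT (limma, adjusted P = 8e-04) and -2.02 ± 0.25 against Slc29a3-/- Tlr7-/- (adjusted P = 0.00014). Against WT replicate 4 alone it was -1.33 (adjusted P = 0.16), and with any 1 library left out it was -1.71 to -1.38 with an adjusted P of 0.0041 or less. Slc29a3-/- Tlr7-/- differed from WT by 0.50 (95% interval -0.03 to 1.02).

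In Ly6Clow monocytes Dnase1l3 had 27.05, 25.5, 26.3, and 120.9 RPM in WT, 25.7, 39.7, 43.9, and 40.1 RPM in Slc29a3-/-, and 82.9, 74.8, 127.5, and 155.6 RPM in Slc29a3-/- Tlr7-/-. WT replicate 4 stood far above the other WT libraries and within the range of Slc29a3-/- Tlr7-/-. Against WT, Dnase1l3 was higher in Slc29a3-/- Tlr7-/- by 1.42 ± 0.42 on the log2 scale (limma, adjusted P = 0.049). This value turned with the WT libraries used. It was 1.96 without WT replicate 4 (adjusted P = 0.00048) and -0.20 against that library alone (0.84). The call was also lost without any of WT replicates 1 to 3 or Slc29a3-/- Tlr7-/- replicate 3 or 4 (adjusted P up to 0.15) with only the groups compared (0.14), with a pseudocount of 0.1 RPM (0.054), and with either other filter (0.099 and 0.052). Between the knockouts, a comparison without WT libraries, the groups did not overlap and the log2 fold change was -1.50 ± 0.42 (adjusted P = 0.094), called when only those groups were fitted (0.020). Slc29a3-/- and WT differed by -0.08 (95% interval -0.97 to 0.82).

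Ly6Clow exceeded Ly6Chi monocytes in Dnase1l3 in both knockouts. The log2 difference was 2.30 ± 0.36 in Slc29a3-/- (limma, adjusted P = 1.4e-05) and 1.78 ± 0.36 in Slc29a3-/- Tlr7-/- (adjusted P = 0.00048), with no overlap in either. In WT it was 0.85 ± 0.36 and not called (adjusted P = 0.085). TMM scaling gave 0.92 (adjusted P = 0.043) and RLE scaling 0.91 (0.045), while without Ly6Clow replicate 4 it was 0.31 (0.43). The test of whether the Slc29a3-/- effect differed between the subsets rested on that library too: the interaction was -1.45 (adjusted P = 0.083), -1.99 without Ly6Clow WT replicate 4 (0.0011), and 0.37 with replicate 4 as the only WT (0.94).

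**Figure D3:**
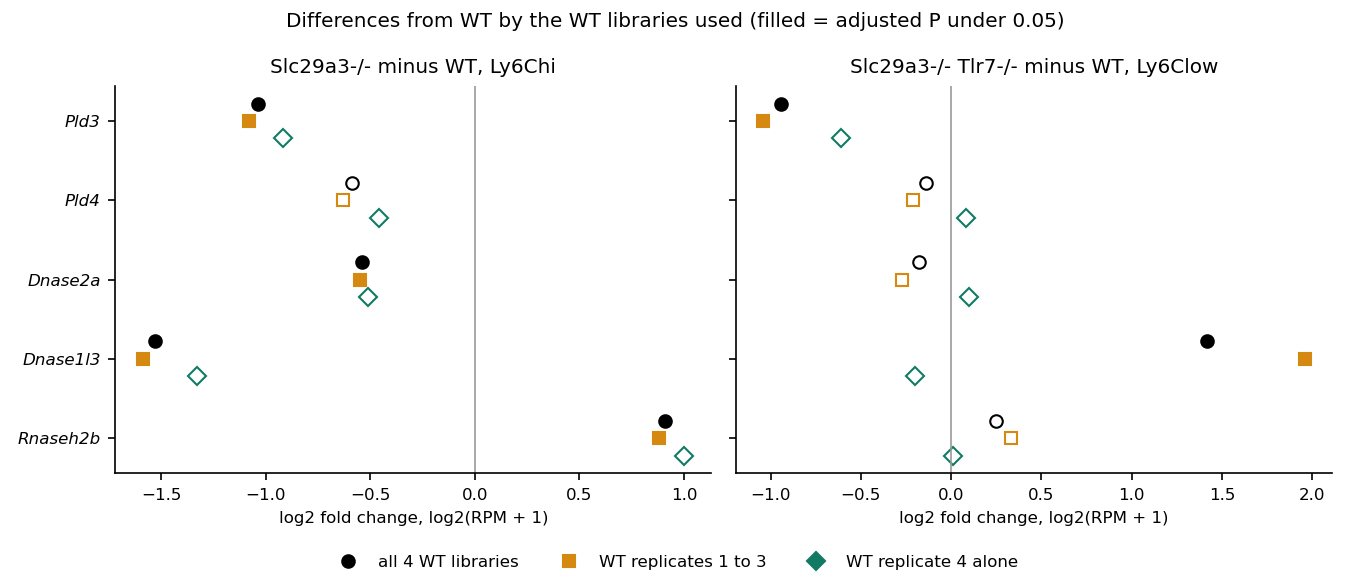
Log2 fold change of the 5 nuclease genes (horizontal axis) against all 4 WT libraries (circles), WT replicates 1 to 3 (squares), and WT replicate 4 alone (diamonds), filled where the adjusted P was under 0.05. The Ly6Chi differences keep their side of 0 in all 3, whereas Dnase1l3 in Ly6Clow monocytes moves from 1.96 to -0.20.

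Markers of dendritic cells, which are known to express Dnase1l3 and Pld4, moved in the same Ly6Chi libraries. All 11 conventional dendritic cell genes tested (Flt3, Zbtb46, and Clec9a among them) and all 9 plasmacytoid dendritic cell genes tested (Siglech and Tcf4 among them) were called lower in Slc29a3-/- than in WT Ly6Chi monocytes, with median log2 fold changes of -0.98 and -1.47. Of all genes, 17.8% were called lower in this comparison. Summed over all 12 listed genes, the conventional dendritic cell genes had 365 to 521 RPM in Slc29a3-/-, 798 to 942 in WT, and 655 to 870 in Slc29a3-/- Tlr7-/- libraries. The 10 plasmacytoid genes had 124 to 216, 277 to 437, and 315 to 379 RPM, and the 277 RPM was WT replicate 4, against 419 to 437 RPM in the other WT libraries. Summed B cell genes were at 17.8 to 24.5, 42.2 to 60.4, and 28.8 to 52.2 RPM, with the B cell factor Ebf1 at 0 in all Slc29a3-/- Ly6Chi libraries. Slc29a3-/- replicate 4 had the lowest sum of each of these lists in the subset and the lowest Pld3, Pld4, Dnase2a, and Dnase1l3. It also had the highest neutrophil sum, 83400 RPM, against 43500 to 50600 RPM in the other Slc29a3-/- Ly6Chi libraries. In Ly6Clow monocytes, 4 of 11 conventional dendritic cell genes were called lower in Slc29a3-/- than in WT, 5 lower than in Slc29a3-/- Tlr7-/-, and 1 lower in Slc29a3-/- Tlr7-/- than in WT (median log2 fold changes of -0.74, -1.07, and 0.10, beside 4.64%, 1.93%, and 8.87% of all genes called in either direction), and their sums were 806 to 1070 RPM in WT, 630 to 754 in Slc29a3-/-, and 718 to 857 in Slc29a3-/- Tlr7-/-. Plasmacytoid genes had 281 to 357, 220 to 255, and 194 to 224 RPM there, and B cell genes 133 to 154, 81.4 to 131, and 201 to 250 RPM, with Ebf1, Fcer2a, and Cr2 at 0 in Slc29a3-/- Tlr7-/-. WT replicate 4, the library with 120.9 RPM of Dnase1l3, had the highest conventional dendritic cell sum of the Ly6Clow libraries. The part of such cells in the levels of Dnase1l3, Pld3, Pld4, and Dnase2a was not tested.

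Rnaseh2b, the RNase H2 subunit, was the member that rose in Slc29a3-/- Ly6Chi monocytes. It had 26.6, 22.7, 25.4, and 22.7 RPM in WT, 40.3, 34.2, 50.6, and 67.0 RPM in Slc29a3-/-, and 23.9, 29.7, 18.4, and 41.0 RPM in Slc29a3-/- Tlr7-/-. All Slc29a3-/- libraries lay above all WT libraries, whereas Slc29a3-/- Tlr7-/- replicate 4 lay within the Slc29a3-/- range. Against WT the log2 fold change was 0.91 ± 0.24 (limma, adjusted P = 0.011), 1.07 under TMM scaling (0.0067), and 1.00 against WT replicate 4 alone (0.26). Against Slc29a3-/- Tlr7-/- it was 0.76 ± 0.24 (adjusted P = 0.035). This second call was lost without a filter (0.077), with only the groups compared (0.074), and without Slc29a3-/- replicate 3 or 4 or Slc29a3-/- Tlr7-/- replicate 1 or 3 (log2 fold changes down to 0.58, adjusted P up to 0.12). In Ly6Clow monocytes WT had 22.3 to 30.6, Slc29a3-/- 30.1 to 34.1, and Slc29a3-/- Tlr7-/- 24.1 to 42.4 RPM, and no difference was called. Between the subsets of Slc29a3-/- mice the log2 difference of -0.54 was at the threshold (adjusted P = 0.051), with all Ly6Clow libraries below all Ly6Chi libraries. It was called with TMM scaling (-0.63, 0.028), RLE scaling (-0.63, 0.031), a mean of at least 10 RPM (0.047), and the replicate block (0.045). Without Ly6Chi replicate 2 it was -0.68 (0.020) and without Ly6Chi replicate 4 -0.36 (0.21).

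Among the partner subunits of RNase H2, Rnaseh2c rose as well in Slc29a3-/- Ly6Chi monocytes, from a mean of 3.92 RPM in WT to 7.58 RPM (log2 fold change 0.79 ± 0.20, limma, adjusted P = 0.0091). Rnaseh2a, which carries the catalytic site, was at 63.6 RPM in WT against 57.5 RPM in Slc29a3-/- (-0.14, adjusted P = 0.46). Cell cycle genes moved in the same libraries. All 12 tested, Mki67, Top2a, and Cdk1 among them, were called higher in Slc29a3-/- than in WT Ly6Chi monocytes (median log2 fold change 1.25, beside 10.2% of all genes), and all 12 higher than in Slc29a3-/- Tlr7-/- (1.77, beside 20.4% of all genes called in either direction). Their summed level was 2000 to 3500 RPM in Slc29a3-/-, 1180 to 1230 RPM in WT replicates 1 to 3 and 745 in WT replicate 4, and 609 to 1010 RPM in Slc29a3-/- Tlr7-/- Ly6Chi libraries and 129 to 272 RPM over all Ly6Clow libraries. Slc29a3-/- replicate 4 had both the highest sum and the highest Rnaseh2b of all libraries, and Slc29a3-/- Tlr7-/- replicate 4 had both the highest in its Ly6Chi group. Ly6Clow libraries of Slc29a3-/- mice had more Rnaseh2b than WT Ly6Chi libraries, with cell cycle sums of 164 to 208 RPM. The part of dividing cells in the level of Rnaseh2b was not tested.

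**Figure D4:**
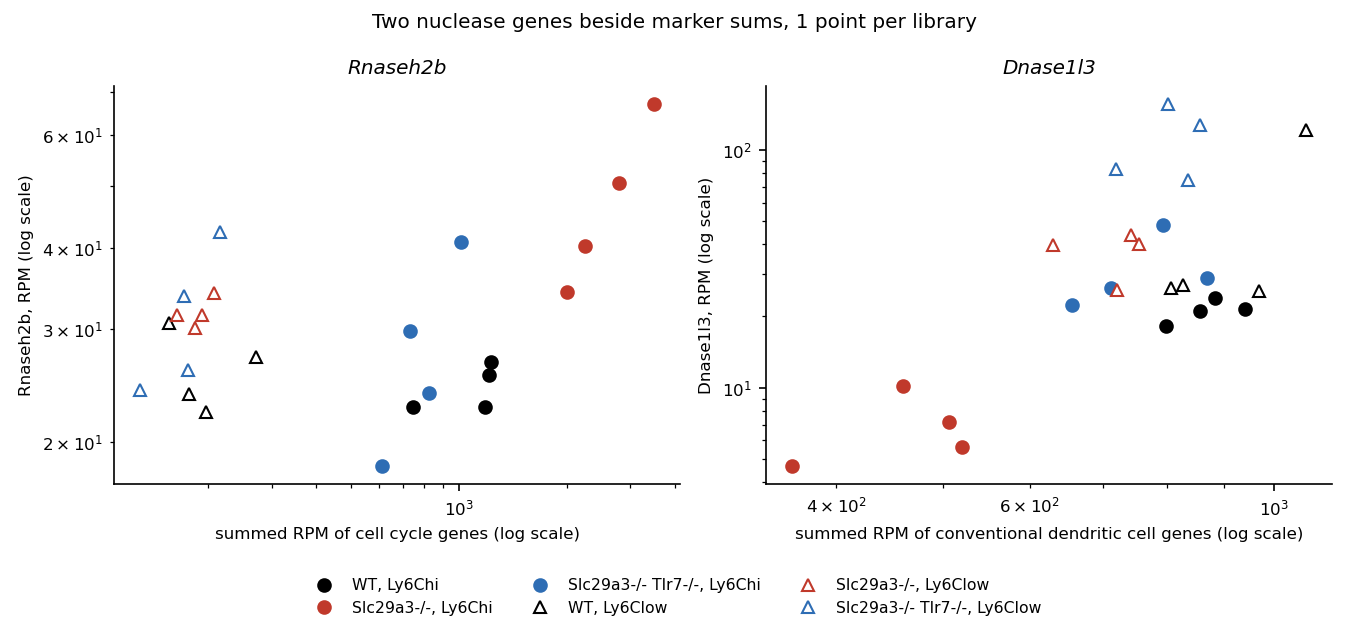
Rnaseh2b against the summed RPM of 12 cell cycle genes, and Dnase1l3 against the summed RPM of 12 conventional dendritic cell genes (both axes logarithmic), 1 point per library, with circles for Ly6Chi, open triangles for Ly6Clow, and colours for genotype. The 4 Slc29a3-/- Ly6Chi libraries lie apart in both panels, with cell cycle sums of 2000 to 3500 RPM and dendritic cell sums of 365 to 521 RPM.

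The other nucleases of the mouse, in lists of RNases, DNases, and nucleotide hydrolases, moved in both directions. In Slc29a3-/- against WT Ly6Chi monocytes, 2 of 9 other RNases tested were called higher and 1 lower, 1 of 4 other DNases higher and 1 lower, and 2 of 9 nucleotide hydrolases lower, with median log2 fold changes of -0.03, 0.37, and -0.29. Of all genes, 10.2% were called higher and 17.8% lower in this comparison. Exo1, an exonuclease of DNA replication and repair, had a mean of 2.57 RPM in WT and rose to 6.91 RPM (1.10 ± 0.29 on the log2 scale, limma, adjusted P = 0.013). Nt5e, the ectoenzyme CD73 that makes adenosine from AMP, averaged 4.35 RPM in WT against 0.0795 RPM in Slc29a3-/- (adjusted P = 0.0015), the second below the level of 3 reads, and Enpp1, which hydrolyses ATP and cyclic GMP-AMP outside the cell, fell from 3.72 to 0.535 RPM (-1.59, adjusted P = 0.0094). Nt5e was also the only gene of these lists called in Slc29a3-/- Tlr7-/- against WT Ly6Chi monocytes (-1.70, adjusted P = 0.047). In single libraries Nt5e had 0.78 RPM in WT replicate 4 and up to 5.90 RPM in the other WT libraries, at most 0.239 RPM in Slc29a3-/-, and at most 1.00 RPM in Slc29a3-/- Tlr7-/-, so that WT and Slc29a3-/- Tlr7-/- overlapped. Nt5e thus reached the 1 RPM of the filter almost only in WT libraries. Enpp1 passed it in every WT library, at 2.42 RPM or more. For both genes a fall below WT was partly set by the filter. Lymphocytes are known to carry CD73 as well. Against WT, all 7 T cell and all 6 NK cell genes tested were called lower in Slc29a3-/- Ly6Chi monocytes, and 3 of 7 and 0 of 6 in Slc29a3-/- Tlr7-/- (limma). Of all genes, 17.8% were called lower in the first of these comparisons, and 1.46% were called in the second. T cell genes summed to 201 to 210 RPM in WT replicates 1 to 3 and 58.7 in replicate 4, to 10.2 to 20.1 RPM in Slc29a3-/-, and to 23.7 to 114 RPM in Slc29a3-/- Tlr7-/-. NK cell genes summed to 409 to 449 RPM in WT replicates 1 to 3 and 115 in replicate 4, to 19.6 to 38.3 RPM in Slc29a3-/-, and to 6.34 to 686 RPM in Slc29a3-/- Tlr7-/-. The part of such cells in the level of Nt5e was not tested.

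Between the knockouts in Ly6Chi monocytes, 2 of 9 other RNases were higher in Slc29a3-/- and 3 lower, 1 of 4 other DNases higher and 1 lower, and 1 of 9 nucleotide hydrolases higher and 1 lower. Of all genes, 20.4% were called in this comparison. Exo1 (log2 fold change 1.88, limma, adjusted P = 0.00062) and Enpp4 (1.08, 0.027) were the largest increases of these lists. Rnaseh1, which removes RNA from hybrids with DNA, was lower at a mean of 8.25 against 15.1 RPM (-0.79, adjusted P = 0.016). Rnase6, a secreted RNase of phagocytes, was lower at 211 against 360 RPM (-0.78, adjusted P = 0.0048).

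In Ly6Clow monocytes most of the calls in these lists were of nucleotide hydrolases. For Slc29a3-/- against WT, 3 of 8 were higher and 0 of the 10 other RNases and 5 other DNases were called by limma, beside 4.64% of all genes. Acp5, an acid phosphatase of macrophages and osteoclasts, rose to 364 RPM from 133 in WT (1.42 ± 0.18 on the log2 scale, adjusted P = 0.00050), and it was higher than in Slc29a3-/- Tlr7-/- too (1.20, adjusted P = 0.0028). Summed red pulp macrophage genes were at 623 to 1100, 541 to 644, and 301 to 1620 RPM in Slc29a3-/-, WT, and Slc29a3-/- Tlr7-/- Ly6Clow libraries, with erythroid gene means of 95.2, 25.7, and 22.5 RPM, and their part in the level of Acp5 was not tested. Samhd1, which breaks down deoxynucleotides, rose from 398 RPM in WT to 781 in Slc29a3-/- (1.06, adjusted P = 0.043) and 973 in Slc29a3-/- Tlr7-/- (1.35, adjusted P = 0.016). Dffb, the DNase of apoptotic DNA cleavage, was lower in Slc29a3-/- Tlr7-/- (16.3 against 30.9 RPM, -0.93, adjusted P = 0.032). Rnaseh1 was higher there (18.9 against 11.6 RPM, 0.68, adjusted P = 0.050 after rounding). The effect of Slc29a3-/- on Acp5 differed between the subsets (Ly6Chi minus Ly6Clow, -1.71 ± 0.27, adjusted P = 0.00035).

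Subset itself went with larger differences in these lists. Smpdl3b, a lipid phosphodiesterase related to a nucleotide hydrolase, was higher in Ly6Clow than in Ly6Chi monocytes by 2.63, 2.90, and 2.80 on the log2 scale in WT, Slc29a3-/-, and Slc29a3-/- Tlr7-/- mice (limma, adjusted P of 2.1e-10, 8.6e-12, and 4.1e-11). Acp5 was higher by 2.05, 3.76, and 2.41. Exo1 was lower in Ly6Clow monocytes of WT (-0.97, adjusted P = 0.0064) and Slc29a3-/- mice (-1.88, adjusted P = 2.3e-06).

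**Figure D5:**
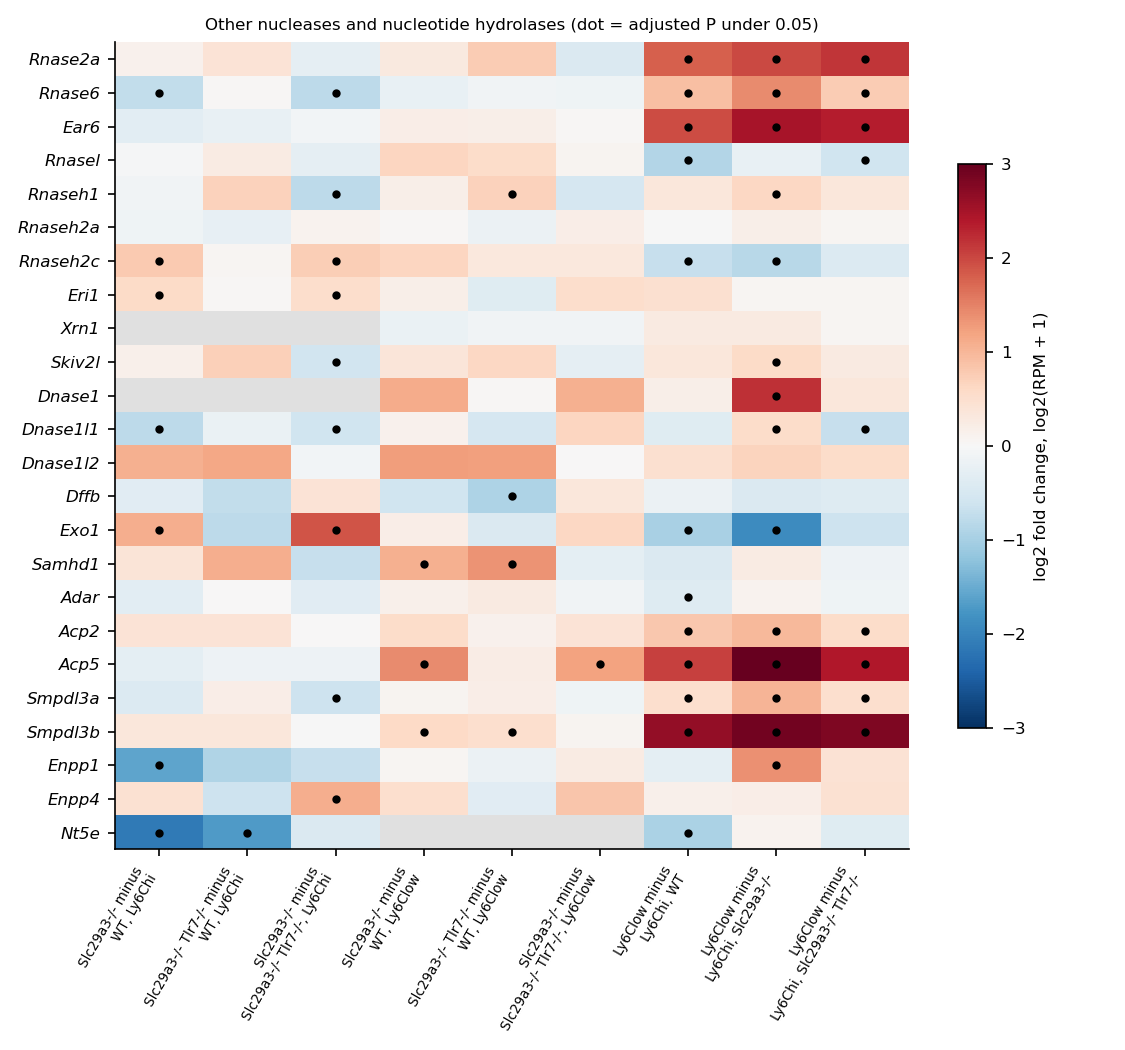
Log2 fold change on the log2(RPM + 1) scale (colour, red higher and blue lower, saturated beyond 3 in either direction) of the other RNases, DNases, and nucleotide hydrolases tested (rows) in 9 comparisons (columns), with dots for an adjusted P under 0.05 and grey where a gene was not tested. The columns of Ly6Clow minus Ly6Chi hold the deepest colours, up to 3.76 for Acp5 in Slc29a3-/- mice.

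The sensors that read the products of these enzymes are listed for comparison. Of 12 endosomal and cytosolic sensor genes, 4 were lower and 0 higher in Slc29a3-/- than in WT Ly6Chi monocytes (median log2 fold change -0.54), 7 were lower and 0 higher than in Slc29a3-/- Tlr7-/- (-0.62), and limma called 0 in Slc29a3-/- Tlr7-/- against WT. Of all genes, 17.8% were called lower and 10.2% higher in the first of these comparisons, 20.4% were called in the second, and 1.46% in the third. In Ly6Clow monocytes 0 of 12 were called by limma in the 3 genotype comparisons. There 4.64% of all genes were called for Slc29a3-/- against WT, 8.87% for Slc29a3-/- Tlr7-/- against WT, and 1.93% between the knockouts. Of 11 interferon-stimulated genes, 1 was higher and 0 lower in Slc29a3-/- than in WT Ly6Chi monocytes, and 1 was higher and 4 lower than in Slc29a3-/- Tlr7-/-.

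Ordered by group mean, Pld3 ran from WT Ly6Chi (33.8 RPM) through Slc29a3-/- Ly6Clow, WT Ly6Clow, Slc29a3-/- Tlr7-/- Ly6Chi, and Slc29a3-/- Ly6Chi to Slc29a3-/- Tlr7-/- Ly6Clow monocytes (11.96 RPM), and each neighbouring pair overlapped. Dnase2a ran from WT Ly6Chi (71.96 RPM) to Slc29a3-/- Ly6Chi monocytes (49.5 RPM), also with overlap at every step. For Pld4 the order was WT Ly6Clow (1800 RPM), Slc29a3-/- Tlr7-/- Ly6Chi, Slc29a3-/- Tlr7-/- Ly6Clow, Slc29a3-/- Ly6Clow, WT Ly6Chi, and Slc29a3-/- Ly6Chi (892 RPM), and only the Slc29a3-/- Ly6Clow libraries did not overlap with the group before and the group after them. For Dnase1l3 it was Slc29a3-/- Tlr7-/- Ly6Clow (110.2 RPM), WT Ly6Clow, Slc29a3-/- Ly6Clow, Slc29a3-/- Tlr7-/- Ly6Chi, WT Ly6Chi, and Slc29a3-/- Ly6Chi (6.90 RPM), where only the last step was free of overlap. Rnaseh2b ran from Slc29a3-/- Ly6Chi (47.99 RPM) down to WT Ly6Chi monocytes (24.4 RPM), and only the first step, to Slc29a3-/- Ly6Clow monocytes (31.8 RPM), was free of overlap.

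Over the 24 libraries, the genes whose log2 levels ran most alike differed for each nuclease, among 7492 genes with a mean of at least 10 RPM. For Pld3 these were Tpst1, Tpst2, and Stx8 (Pearson r of 0.899, 0.840, and 0.832), for Pld4 Cytip, Ctsa, and Haao (0.926, 0.910, and 0.888), and for Dnase2a Galnt6, Vopp1, and Rnf187 (0.816, 0.792, and 0.785). Dnase1l3 ran most like Akap8l, H2-Ob, and Spag9 (0.928, 0.916, and 0.914), and Rnaseh2b most like Fmo5, Msh6, and Ckap5 (0.817, 0.811, and 0.806). The libraries share genotypes, subsets, and barcodes, so these values describe likeness across groups as much as between libraries.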

How the data were processed

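The values used were RPM (reads scaled to a total of 1000000 per library) of 23930 amplicons in 24 libraries, 1 table that the authors deposited. Total RNA (1 ng, RIN above 7.3) of sorted cells was amplified with an Ion AmpliSeq Transcriptome Mouse kit and sequenced on Ion Proton, and per the labels the genome build is mm10. Read trimming with Cutadapt, alignment with STAR, and counting with HTSeq are described in the study's methods, whereas the labels name a plug-in of the sequencer, and which step wrote the RPM values is not stated. Each amplicon stands for 1 short stretch of a gene, amplified with its own efficiency, so levels were not compared between genes. Entries of 0.0001 stand for 0 reads and were turned into 0, and 27 gene names turned into dates were repaired from the amplicon names. Reads per library were inferred from the even step between low values, of which 100% under 5 RPM were whole within 0.1 read. PCR reads are not independent molecules.

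Groups were taken from the sample labels. Values were transformed to log2(RPM + 1), genes were kept where 4 or more libraries reached 1 RPM, and limma 3.58.1 in R 4.3.3 (eBayes with an intensity trend) was fitted to the 12 libraries of a subset for genotype effects and to all 24 for subset differences and interactions. P values were adjusted over all genes tested by the Benjamini-Hochberg method. A fold change on this scale understates the change of low genes. Exact two-sided permutation tests of 4 against 4 libraries were also computed, and their smallest possible P of 0.029 was reached wherever groups did not overlap. In WT, deviations of same-numbered libraries from their group means correlated across the subsets at 0.259 to 0.619 (4 pairs). In the knockouts they correlated at -0.456 to 0.338. Libraries of unlike number were not compared, and in both WT subsets replicate 4 differs from replicates 1 to 3 by barcode range. These values therefore do not show that the numbers pair the subsets, and the labels name no pairing. Alternatives were TMM and RLE scaling (computed from the RPM values), a pseudocount of 0.1 RPM, no filter, a mean of at least 10 RPM, only the groups compared, a block for the replicate number, omission of each library, WT represented by replicate 4 alone, and the study's thresholds (fold over 1.5 and unadjusted P under 0.05). Genes other than the 8 were named by a rule: in each list of nucleases, up to 2 called genes with the largest increase and 2 with the largest decrease per comparison, not all of which are reported, and the 3 genes most like each member. Rnaseh2a, and the markers given as examples, are named outside it. The genes, lists, and alternatives were chosen with earlier results of these data known. Positions are of GENCODE vM21 and promoter windows of RefSeq. Python 3.11.15 (pandas 2.3.3, numpy 2.4.6) gave the summaries, and matplotlib 3.10.9 drew the plots.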

Additional observations from a re-analysis of the deposited data

Results flagged for a closer look

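In WT Ly6Clow monocytes, replicate 4 lay apart from replicates 1 to 3 for 2 of the 5 nuclease genes. It had the highest Dnase1l3, 120.9 RPM against 25.46 to 27.05 RPM in the others, a gap of 0.983 of the whole range of the group. It also had the lowest Dnase2a, 51.65 RPM against 65.8 to 68.5 RPM, a gap of 0.841 of the range. In all, 30 groups of 4 libraries were checked in this way, and chance alone would mark about 1 in 20. This replicate is also the WT Ly6Clow library outside barcodes 11 to 16, and whether the barcode or the library sets it apart was not tested.

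The effect of genotype on Pld3 differed between Ly6Chi and Ly6Clow monocytes in 2 tests of the difference itself with limma. The log2 fold change of Slc29a3-/- against WT was lower in Ly6Chi monocytes, with a difference of -1.28 (adjusted P = 0.013). Between the knockouts the difference was -1.64 (adjusted P = 0.0024). This log2 difference holds no WT library, but its P uses the spread of all 24 libraries.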

How the results depend on the processing

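The depth of every library set no limit for these 5 genes, whose lowest value lay above the level of 3 reads. Of 485 gene values under alternatives other than leaving out a library, 434 kept their direction and call, 22 lost a call, 20 gained one, and 9 changed sign. With a library left out these counts were 552, 20, 11, and 17 of 600. Of all sign changes, 25 were of values not called in the reported analysis and 1 of a called value, and the cause was not tested. A fit with edgeR on whole reads was planned but left out, although the low values rise in steps of whole reads.

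With WT represented by replicate 4 alone, the fit has fewer samples by construction, and calls fell over all genes, not only in this list. Only effect sizes are therefore given here. For Slc29a3-/- against WT in Ly6Chi monocytes the log2 fold changes were -0.92 for Pld3, -0.46 for Pld4, -0.51 for Dnase2a, -1.33 for Dnase1l3, and 1.00 for Rnaseh2b. In the reported analysis they were -1.04, -0.59, -0.54, -1.53, and 0.91. Pld3 was at -0.61 in Slc29a3-/- Tlr7-/- against WT Ly6Clow monocytes (-0.94 in the reported analysis). Between the subsets of WT this fit sets 1 library against 1, with the 120.9 RPM of Dnase1l3 that stands apart among the WT Ly6Clow libraries, so it shows no difference between the subsets. The values that changed sign with WT replicate 4 alone were, for Ly6Clow monocytes, 0.25 for Dnase2a in Slc29a3-/- and 0.08 for Pld4, 0.10 for Dnase2a, and -0.20 for Dnase1l3 in Slc29a3-/- Tlr7-/-. For the interactions they were 0.37 for Dnase1l3 in Slc29a3-/- and -0.20 for Dnase2a, 0.89 for Dnase1l3, and 0.24 for Rnaseh2b in Slc29a3-/- Tlr7-/-. RLE scaling moved Rnaseh2b between the Ly6Clow knockouts to -0.03.

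For Slc29a3-/- Tlr7-/- against WT in Ly6Clow monocytes the count was 2, beside 8.87% of all genes. It became 1 with RLE scaling (9.69% of all genes), a pseudocount of 0.1 (7.41%), a mean of at least 10 RPM (9.15%), or the replicate block (6.16%). It became 0 without a filter (3.15%) or with only the groups compared (0.611%). Between the Ly6Clow knockouts the count was 1, beside 1.93% of all genes. It became 0 without a filter (1.29%) or with a mean of at least 10 RPM (1.03%), and 2 with the study's thresholds (13.7%). It stayed at 1 with only the groups compared (1.34% of all genes) or with the replicate block (1.66%). The gene was then Dnase1l3 (limma, adjusted P of 0.020 and 0.050) in place of Pld3 (0.097 and 0.055). Between the subsets of WT the count was 0, beside 29.6% of all genes. It became 2 with TMM or RLE scaling (30.3% and 30.2%) and 1 with the study's thresholds (29.3%). With those thresholds the interactions of Slc29a3-/- with WT and with Slc29a3-/- Tlr7-/- had 2 and 3 in place of 1 each, beside 20.2% and 22.6% of all genes.

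With 1 library left out, the counts ranged from 4 to 5 for Slc29a3-/- against WT, 0 to 1 for Slc29a3-/- Tlr7-/- against WT, and 2 to 4 between the knockouts in Ly6Chi monocytes, and from 0 to 1, 0 to 2, and 0 to 1 in Ly6Clow monocytes. Between subsets they ranged from 0 to 1 in WT, 2 to 4 in Slc29a3-/-, and 2 to 2 in Slc29a3-/- Tlr7-/-, and for the interactions from 1 to 2, 0 to 0, and 1 to 2. Shares of all genes called were not computed with a library left out. Values that changed sign had ranges around 0. For genotype effects these were -0.04 to 0.33 for Rnaseh2b (Slc29a3-/- Tlr7-/- against WT, Ly6Chi), -0.13 to 0.02 for Dnase2a and -0.27 to 0.47 for Dnase1l3 (Slc29a3-/- against WT, Ly6Clow), and -0.07 to 0.20 for Rnaseh2b (between the knockouts, Ly6Clow). Between subsets they were 0.00 to 0.15 for Rnaseh2b in WT and, in Slc29a3-/- Tlr7-/-, -0.15 to 0.11 for Pld4 and 0.00 to 0.37 for Rnaseh2b. For the interaction of Slc29a3-/- Tlr7-/- with WT they were -0.06 to 0.15 for Dnase2a and -0.29 to 0.08 for Rnaseh2b.

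Deviations of same-numbered libraries of other genotypes correlated at -0.187 to 0.153 over 24 pairs within a subset, which gave no sign that the numbers pair genotypes. Across the subsets of 1 genotype, 4 of 4 pairs were over 0.1 in WT, 3 of 4 in Slc29a3-/- (from -0.081), and 1 of 4 in Slc29a3-/- Tlr7-/- (from -0.456). In WT, where all 4 such pairs were over 0.1, the block changed no call between the subsets (adjusted P of 0.11 for Pld3, 0.060 for Pld4, and 0.067 for Dnase1l3). With the replicate block, Pld4 in Slc29a3-/- against WT Ly6Chi monocytes (-0.59, adjusted P = 0.022) and Rnaseh2b between the subsets of Slc29a3-/- mice (-0.54, 0.045) were also called, and Pld3 in Slc29a3-/- Tlr7-/- against WT Ly6Clow monocytes (-0.94, 0.056) was not. Scaling moved the split of all genes called, from 258 higher and 657 lower to 510 and 490 (RLE) for Slc29a3-/- Tlr7-/- against WT in Ly6Clow monocytes and, with TMM, from 456 and 521 to 649 and 375 and from 501 and 490 to 694 and 289 in the interactions of Slc29a3-/- with WT and with Slc29a3-/- Tlr7-/-.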
